A study of Mus musculus with 12 samples.

Results

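Mouse embryonic stem (ES) cells that lack Dicer (KO) were compared with wild-type (WT) cells across all expressed genes. The comparison rests on 4 of the 12 libraries of the series, KO replicates 1 and 2 and WT replicates 1 and 2, taken by the column names of the count table. Both groups are E14 ES cells of the 129/Ola background, grown on gelatine in serum with LIF, and puromycin was in the medium of WT as well as KO cells. The other 8 libraries come from cells complemented with Dicer, 2 each of SOM, 41584, 41585 and 41589. Per the labels, 41585 processes neither miRNAs nor siRNAs, 41589 no siRNAs, and 41584 resembles WT, so that 41585 against 41584 is a pair of groups that shares no library with KO against WT. The part of Dicer1 that was deleted, whether KO is 1 clone, and whether the libraries of a group are separate cultures were not stated in the labels. The p-values therefore measure only the spread between libraries of the same group, which the fit estimated over all 12 libraries of the 6 groups. That spread may be technical, although the 2 KO libraries differed in reads of Y chromosome genes, as given below.

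Dicer is the RNase that cuts hairpin precursors into miRNAs and long double-stranded RNA into siRNAs. A miRNA loaded on an Argonaute protein pairs through its seed, a short stretch near its 5′ end, with sites in the 3′ UTRs of mRNAs and lowers their stability and translation. ES cells are rich in 2 miRNA families with related seeds, the miR-290 and miR-302 clusters and the miR-17 family, which are known to restrain inhibitors of the cell cycle and differentiation genes. The poly(A) libraries used here measure mRNAs, not mature miRNAs. In bulk samples, fewer cells expressing a gene and less RNA per cell cannot be told apart.

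Dicer1 mRNA was measured first, as a check of the labels. It stood at 197 and 214 CPM (read counts scaled to library size) in the 2 WT libraries and at 28.5 and 44 CPM in the 2 KO libraries. The groups did not overlap, and the log2 fold change was −2.50 ± 0.36 (adjusted p = 0.0015, edgeR quasi-likelihood test with Benjamini-Hochberg adjustment, n = 2 per group). Here and below, ± is an approximate standard error, the absolute log2 fold change divided by the square root of the F statistic. Reads that remain can come from exons outside the deletion. In the other pair Dicer1 was low on both sides, at 29.1 and 39.2 CPM in 41585 and 42.3 and 55 CPM in 41584.

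The 4 libraries held 6610469 to 8863145 counted reads, and mitochondrially encoded genes took 3.485 to 5.175% of them. The 2 libraries of a group had a Pearson correlation of 0.975 in WT and 0.983 in KO. KO replicate 2 stood apart on the Y chromosome, where 11 tested genes summed to 10.6 CPM against 457 CPM in KO replicate 1 and 471 to 665 CPM in WT. ES cell markers summed to 8070 and 8390 CPM in WT and to 8890 and 8640 CPM in KO. Of the 14 markers, which include Pou5f1, Sox2 and Nanog, 1 was called and 6 had an unadjusted p under 0.05 in edgeR. Over all 14629 tested genes 4410 had such a p. The called marker was Alpl, the alkaline phosphatase of pluripotent cells, which rose by 1.29 ± 0.30 (adjusted p = 0.0159, edgeR). No fit with 1 of the 4 libraries left out kept that call. Of 12 fibroblast markers 4 passed the filter on low counts, with sums of 25.8 and 29.2 CPM in WT and 13.5 and 10.5 CPM in KO, none called in edgeR and 1 in DESeq2, and Col3a1, Lum, Postn and Twist2 were at 0 in all 4 libraries. Of 11 blood markers 2 passed, with sums of 19.8 to 24.6 CPM. Of 10 keratinocyte markers 3 passed, and their sum was 4.48 and 6.24 CPM in WT and 39.9 and 47.7 CPM in KO. Most of that came from Krtdap and Sfn, of which Krtdap was called, while the basal keratins Krt5 and Krt14 were at or under 0.656 CPM in all 4 libraries. Trp63, a transcription factor of basal keratinocytes, did not pass the filter and was at 0.155 and 0.219 CPM in WT and at 2.56 and 0.924 CPM in KO. The part of these markers in the results was not tested.

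Of 14629 genes tested, 1066 were called higher in KO (7.29%) and 863 lower (5.9%), at an adjusted p under 0.05. Each group has 2 libraries, and leaving out 1 of the 4 lowered the total of 1929 calls to between 237 and 606. Genes are therefore called steady here if they passed in the full fit, kept their direction and passed in each of the 4 fits without 1 KO or WT library, and passed in DESeq2 as well. There were 125 steady genes higher in KO (0.854% of the genes tested) and 42 lower (0.287%), 167 in all (1.14%). Protein-coding genes made up 122 of the 125 and 40 of the 42. The higher steady genes had a median of 5.63 CPM in WT and 57.5 CPM in KO, and 27 of them averaged under 1 CPM in WT. The lower ones went from a median of 52.6 CPM to 5.35 CPM. Steady genes were concentrated at middle levels of expression: in 4 equal classes of tested genes, from the lowest mean level to the highest, there were 11, 51, 74 and 31 of them.

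**Figure D1:**
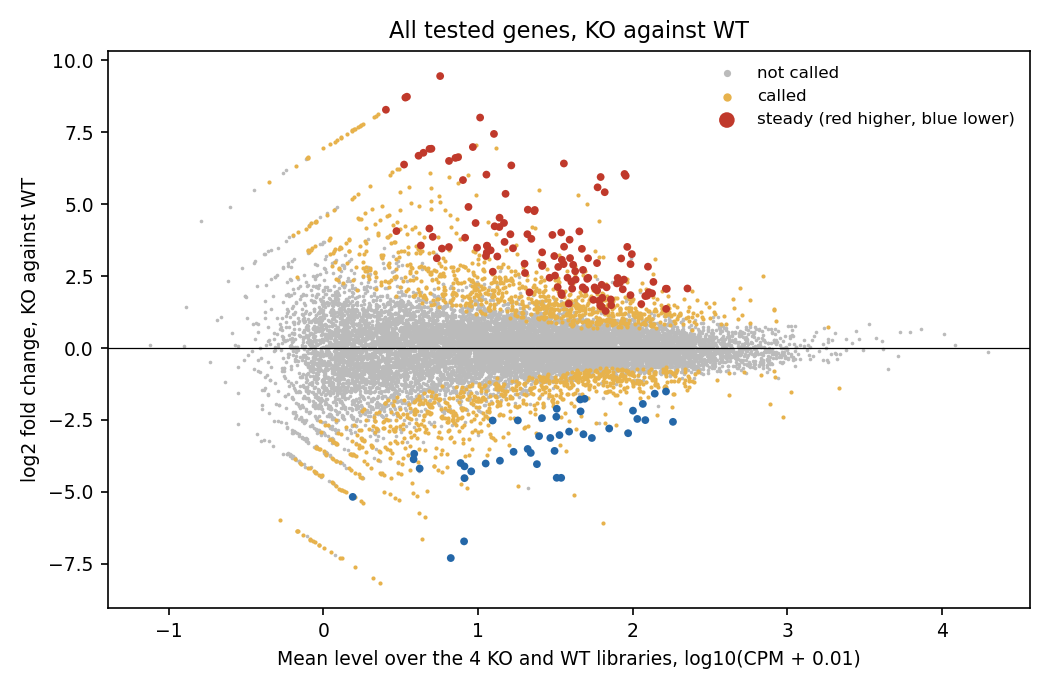
Log2 fold change of KO against WT (vertical axis) against the mean level over the 4 libraries (horizontal axis, log10 of CPM + 0.01) for 14629 tested genes. The 125 steady higher genes (red) and 42 steady lower genes (blue) lie at larger folds than most of the other called genes (yellow), and the genes not called (grey) centre on 0.

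One stretch of the genome has to be described before single genes, because WT stood apart there from all other libraries. On chromosome 1 between 130 and 160 Mb (GRCm38), 161 genes were tested, of which 54 were called higher in KO (33.5%) and 4 lower (2.48%), with a median log2 fold change of 0.71. The other 702 tested genes of that chromosome gave 47 higher (6.7%) and 39 lower (5.56%), with a median of −0.09. In 68 of the 161 genes (42.2%) both WT libraries were below all 10 other libraries, against 22 of the 702 genes (3.13%) on the rest of the chromosome and 5.26% of all tested genes. Over the 95 genes of the stretch with a mean of at least 10 CPM, the median difference from the median library was −0.59 and −0.67 on the log2 scale in the WT libraries and 0.05 and 0.09 in the KO libraries. The 8 libraries of the other lines lay between −0.07 and 0.21. The median of 41585 against 41584 was 0.09 over the stretch. Of 214 windows of 10 Mb with at least 15 such genes, 3 had a median above 0.5 in KO against WT, namely the 2 windows that cover 130 to 140 and 150 to 160 Mb of chromosome 1 (medians 0.70 and 0.68) and the first 10 Mb of the X chromosome (0.69). None was below −0.5. In 41585 against 41584, 17 of the windows were beyond 0.5 in either direction. The X window had a median of 0.65 in 41585 against 41584 too, while the chromosome 1 windows had −0.14 and −0.32. The stretch was picked after its values were seen, so these are descriptions without a test, and the DNA of the cells was not measured.

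**Figure D2:**
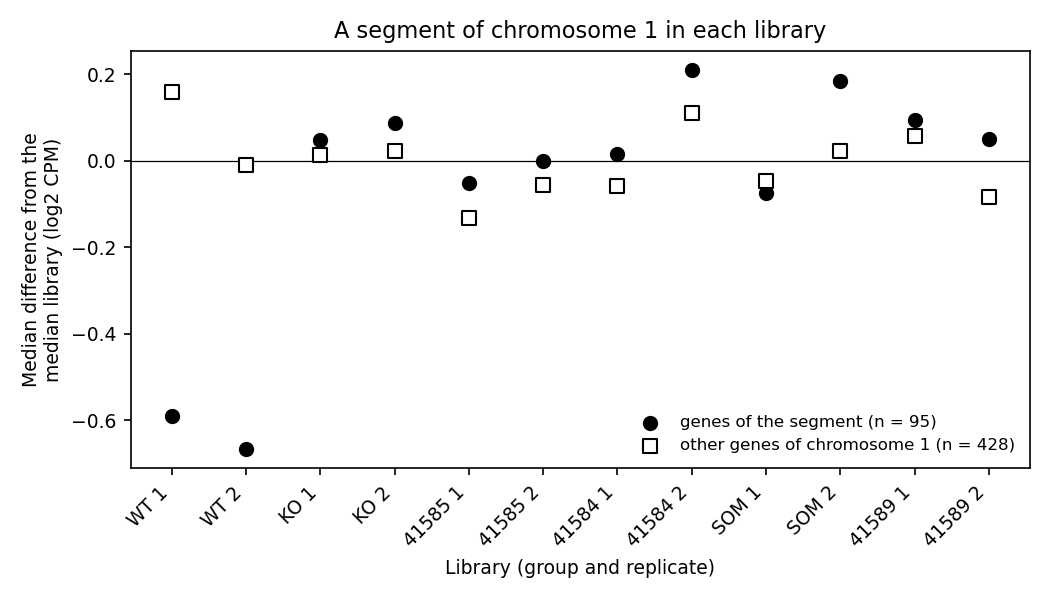
Median difference of each of the 12 libraries from the median library (vertical axis, log2 CPM) over 95 genes on chromosome 1 between 130 and 160 Mb (filled circles) and over 428 other genes of that chromosome (open squares), all with a mean of at least 10 CPM. Both WT libraries sit at −0.59 and −0.67 over the stretch and the other 10 libraries between −0.07 and 0.21.

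Of the 125 steady higher genes, 13 lie in this stretch, among them Rab29, Elk4, Plekha6, Ren1, Adipor1, Timm17a, Nav1, Csrp1, Dennd1b, Arpc5 and Tor1aip1. In 41585 against 41584, 7 of the 13 were called higher, compared with 111 of the 112 steady higher genes elsewhere. Timm17a, a subunit of the inner mitochondrial membrane translocase, is 1 of the 6 that were not called there. It measured 38.7 and 39.1 CPM in WT, 91.1 and 98.8 CPM in KO, 93.8 and 81.6 CPM in 41585 and 78.5 and 96.4 CPM in 41584. The WT libraries were the low ones, and the log2 fold change of 1.29 ± 0.21 in KO against WT (adjusted p = 0.00308, edgeR) stood beside 0.00495 in 41585 against 41584. Ren1, which encodes renin, had 1 read in WT and 129 in KO, a ratio with a 95% counting interval of 24.2 to 5453, and was called in 41585 against 41584 as well (adjusted p = 0.000329, edgeR). Leaving all 161 genes out gave 1002 higher and 848 lower genes, over the remaining genes with p-values adjusted anew.

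Among the genes with the largest steady folds were several known from the immune response, close to absent in WT and plain in KO. The guanylate-binding protein gene Gbp2 was at 0.155 and 0.109 CPM in WT and at 16.6 and 11.7 CPM in KO, with a 95% counting interval of 30.8 to 936 for the ratio. Its neighbour Gbp2b, which codes for a closely similar GTPase, was at 0.464 and 0.219 CPM in WT and 26.5 and 18.2 CPM in KO. Reads of near-identical stretches may be split between these 2 genes, so the level of each is uncertain. Oasl2, an oligoadenylate synthetase-like protein, stood at 0.309 and 0.438 CPM in WT and at 35.4 and 29.6 CPM in KO. Both KO libraries exceeded both WT libraries by far, with a log2 fold change of 6.35 ± 0.87 (adjusted p = 0.0015, edgeR). Lgals9, the lectin galectin-9, went from 1.70 and 2.19 CPM to 154 and 90.8 CPM (5.95 ± 0.52, adjusted p = 0.000124, edgeR). The peptidoglycan recognition protein genes Pglyrp1 and Pglyrp3, named here after their values were seen, had 0 reads in WT and 103 reads each in KO, at least 36.5-fold higher when WT is set to 3 reads over the group.

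C1qtnf9, a secreted relative of adiponectin, was at 0.155 and 0.109 CPM in WT and at 30.1 and 20.3 CPM in KO. Pdgfc, a growth factor for PDGF receptors, measured 2.78 and 2.08 CPM in WT and 124 and 109 CPM in KO (5.59 ± 0.80, adjusted p = 0.00152, edgeR). For both the groups were far apart, and the 2 libraries of 41584 held 3.20 and 25.3 CPM of Pdgfc. Enpp2, the enzyme autotaxin that makes lysophosphatidic acid, went from 0.309 and 0.219 CPM to 18.2 and 13.2 CPM. Pla2g7, the secreted hydrolase of platelet-activating factor, went from 2.32 and 3.17 CPM to 175 and 180.4 CPM (5.99 ± 0.76, adjusted p = 0.000793, edgeR). The glycosyltransferase gene Gcnt3, which starts branches on mucin-type glycans, was at 23.1 and 13.7 CPM in KO with 2 reads in WT (counting interval of the ratio 40.5 to 1225).

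Smyd1, a methyltransferase of heart and skeletal muscle, was at 2.47 and 2.73 CPM in WT and at 176 and 174 CPM in KO (6.05 ± 0.46, adjusted p = 7.09e-05, edgeR). General muscle markers did not follow: of 10, 3 passed the filter, their sums were 12.1 and 14 CPM in WT and 10 and 10.5 CPM in KO, and none was called by edgeR or DESeq2, with 0 at an unadjusted p under 0.05. Sypl2, a synaptophysin-like protein of the muscle triad membrane, had 2 reads in WT and 17.6 and 8.16 CPM in KO (counting interval of the ratio 28.6 to 870.0). Sh3rf2, which encodes a ubiquitin ligase with SH3 domains, had 2 reads in WT and 14.1 and 15.2 CPM in KO (counting interval of the ratio 31.2 to 949). Anxa1, a calcium-dependent membrane-binding protein, went from 3.56 and 2.52 CPM to 141 and 118 CPM (5.42 ± 0.56, adjusted p = 0.000285, edgeR). Serpinb9b, a serpin of the granzyme-inhibitor clade, rose from 0.464 and 1.09 CPM to 75.9 and 66.4 CPM (6.42 ± 0.52, adjusted p = 7.5e-05, edgeR).

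Measured per kilobase of merged exon, so that long and short genes compare, the largest steady gains in level belonged to Mt2, Tuba1a, Sparc, Cbr3 and Pla2g7. The zinc-binding metallothionein Mt2 stood at 20.6 and 14.4 CPM in WT and 150.2 and 152 CPM in KO, a gain of 228 CPM per kb. Tuba1a, an alpha-tubulin, gained 114 CPM per kb, and the matrix glycoprotein gene Sparc 73.7 CPM per kb. Cbr3, a carbonyl reductase, gained 64 CPM per kb, from 5.57 and 4.70 CPM to 97.3 and 73.4 CPM. Tuba1a shares long stretches with other alpha-tubulin genes, and the labels do not state how reads that match several genes were counted.

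The steady lower genes with the largest folds included cartilage matrix, germline and lipid genes. Matn3, the cartilage protein matrilin-3, had 17.3 and 14.9 CPM in WT and 2 reads in KO (counting interval of the WT to KO ratio 32 to 969). Acan, which encodes the proteoglycan aggrecan, was at 15.6 and 15.8 CPM in WT and at 0.976 and 0.308 CPM in KO. Both were low in 41585 too, at 0 in both libraries for Matn3 and at 2.81 and 2.32 CPM for Acan. Tex15, a germ cell protein needed for meiotic recombination and transposon silencing in mouse testis, fell from 81.3 and 51 CPM to 2.56 and 3.23 CPM (−4.51 ± 0.55, adjusted p = 0.000632, edgeR). Sycp3, an axial component of the synaptonemal complex, fell from 173 and 74.3 CPM to 18.8 and 16.6 CPM. Stag3, the cohesin subunit of meiosis, and Piwil4, an Argonaute relative that binds piRNAs, also fell steadily, by 2.18 ± 0.31 and 3.68 ± 0.55 (adjusted p = 0.0015 and 0.00185, edgeR), and are named here after their values were seen.

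Elovl4 and Elovl2, enzymes that elongate very long fatty acids, both fell. Elovl4 was at 24.7 and 17.5 CPM in WT and at 1.34 and 1.23 CPM in KO (−4.01 ± 0.64, adjusted p = 0.00293, edgeR). Elovl2 was at 40.7 and 22.1 CPM in WT and at 2.07 and 3.08 CPM in KO (−3.61 ± 0.53, adjusted p = 0.00168, edgeR). The selenoprotein Gpx3, a secreted glutathione peroxidase, fell from 16.2 and 12.8 CPM to 0.732 and 1.08 CPM, and Pla2g1b, a secreted phospholipase, from 31.4 and 49.8 CPM to 1.83 and 4.77 CPM. Serpine2, an inhibitor of thrombin and urokinase, fell from 74.1 and 49.7 CPM to 2.07 and 3.39 CPM (−4.51 ± 0.51, adjusted p = 0.000414, edgeR). Pros1, the anticoagulant cofactor protein S, fell by 3.13 ± 0.37 and B3gnt5, which starts lacto-series glycolipids, fell by 3.51 ± 0.41 (adjusted p = 0.000512 and 0.000514, edgeR). The X-linked gene Tro, for the adhesion protein trophinin, fell from 40.7 and 49.9 CPM to 1.34 and 4.31 CPM, and Trim52, a RING-finger protein gene, from 21.7 and 12.8 CPM to 1.22 and 0.462 CPM.

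Per kilobase of exon the largest steady losses were those of Klf4, Sycp3, Pla2g1b, Prelid2 and Lin28a. Klf4, a transcription factor of naive pluripotency, went from 375 and 249.6 CPM to 53.8 and 51.7 CPM. Prelid2, a relative of mitochondrial lipid transfer proteins, went from 60.5 and 55 CPM to 4.88 and 4.77 CPM. Lin28a, the RNA-binding protein that blocks let-7 maturation, went from 121 and 211 CPM to 18.5 and 24.2 CPM. Kit, the stem cell factor receptor, fell by 1.94 ± 0.24 (adjusted p = 0.000656, edgeR) and is named after its values were seen.

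Some steady genes belong together by their known function and are given here after their values were seen. Plaur, the urokinase receptor, went from 2.78 and 6.45 CPM to 51.3 and 43.4 CPM (3.33 ± 0.50, adjusted p = 0.00207, edgeR). The ligand gene Nrg1 and its receptor gene Erbb3 both rose: Nrg1 was at 2.94 and 3.83 CPM in WT and at 21.3 and 21.7 CPM in KO. Erbb3 was at 45.3 and 59.8 CPM in WT and at 228 and 177 CPM in KO (1.94 ± 0.23, adjusted p = 0.000512, edgeR). Of the Rag GTPases, which bring mTORC1 to the lysosome, Rragd rose from 22.9 and 22.4 CPM to 169 and 173 CPM and the X-linked Rragb fell from 48.6 and 38.9 CPM to 6.95 and 9.24 CPM (adjusted p = 0.000647 and 0.00141, edgeR).

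**Figure D3:**
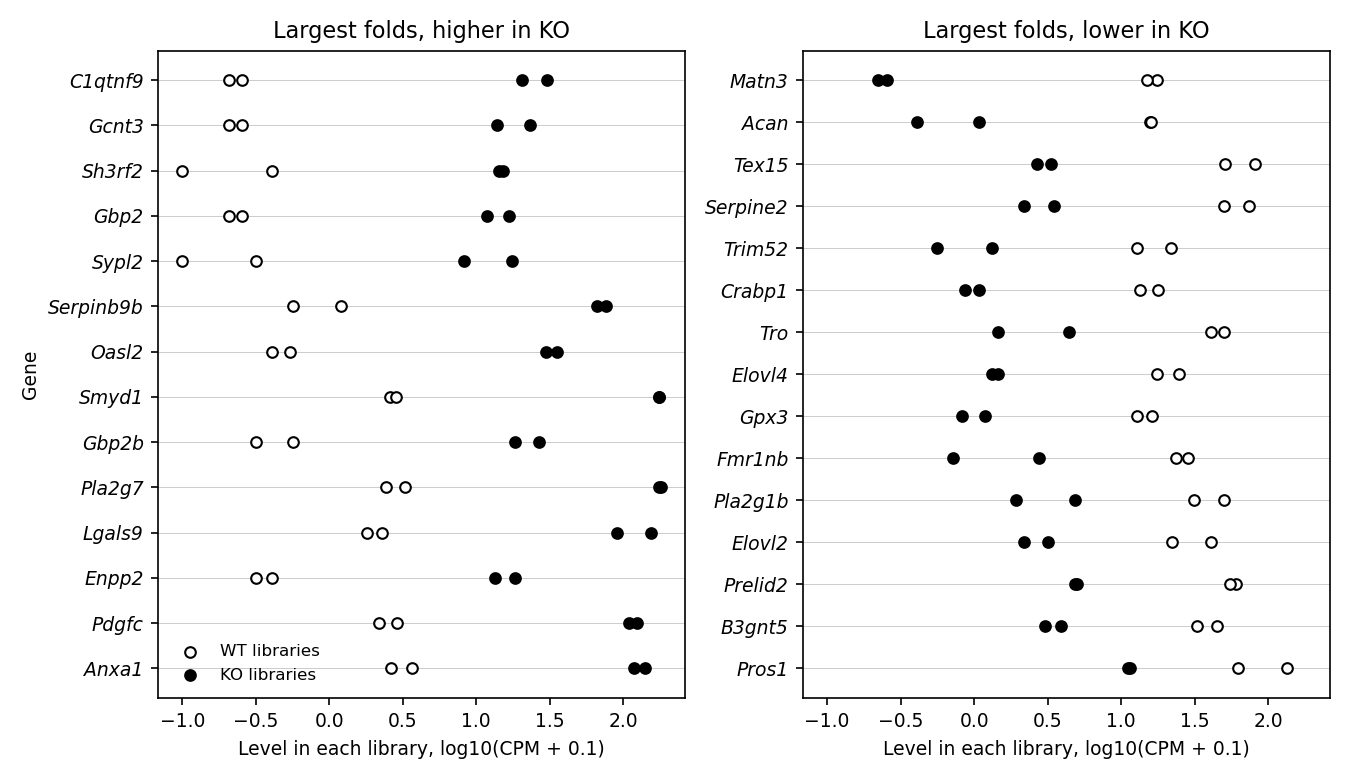
Level of each library (horizontal axis, log10 of CPM + 0.1) for 14 of the 15 steady protein-coding genes with the largest rise (left) and the 15 with the largest fall (right) at a mean of at least 5 CPM, with WT libraries as open and KO libraries as filled circles. In no gene do the WT and KO libraries overlap, which the rule of choice makes likely.

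Few steady genes were not protein-coding. The lincRNAs A730036I17Rik and A730082K24Rik rose by 3.49 ± 0.52 and 4.91 ± 0.82 (adjusted p = 0.00195 and 0.00359, edgeR). Gm5091, another lincRNA, was at 17.3 and 9.19 CPM in WT with 1 read in KO (counting interval of the WT to KO ratio 32.7 to 7325), and the transcribed pseudogene Gm7972 fell by 3.0 ± 0.41 (adjusted p = 0.00123, edgeR). Gm12617, a processed pseudogene with 0 reads in WT and 174 in KO, was at least 61.6-fold higher against 3 reads over the WT group, but reads of its parent gene could be counted there. As classes, processed pseudogenes had 20 members called higher (3.82%) and 1 lower (0.191%) of 523, both shares below those of all tested genes. Antisense genes had 12 higher (7.79%, near the share of all tested genes) and 2 lower (1.3%) of 154. Of 16 tested miRNA precursor genes 1 was called lower (6.25%, near the share of all tested genes). It was Gm27903, with 22 reads in WT and 1 in KO, and it was not steady.

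Gene lists were read by their counts and medians, beside 7.29% higher, 5.9% lower and a median log2 fold change of −0.000317 over all tested genes. Some of their members are among the genes with the largest folds above. Of 16 oxidative stress and metallothionein genes, 7 rose and 1 fell, with a median of 0.88. The steady members were Mt1, Mt2 and Nqo1, the quinone reductase that NRF2 controls. Nqo1 stood at 13.1 and 11.4 CPM in WT and at 52.8 and 53.7 CPM in KO (2.12 ± 0.36, adjusted p = 0.00402, edgeR). G6pdx, which makes NADPH, and Gsr, the glutathione reductase, rose by 1.65 ± 0.30 and 1.19 ± 0.27 (adjusted p = 0.00527 and 0.0152, edgeR). The call of G6pdx was lost without WT replicate 1 and without KO replicate 1, and that of Gsr in each fit with 1 of the 4 libraries left out. Gclc, the catalytic subunit for glutathione synthesis, fell by 0.96 ± 0.26 (adjusted p = 0.0318, edgeR), whereas its regulatory partner Gclm rose by 0.84 ± 0.26 (adjusted p = 0.0476, edgeR), and neither call outlasted leaving out any 1 of the 4 libraries. Hmox1, the stress-induced haem oxygenase, was not called (0.38 ± 0.28, adjusted p = 0.389, edgeR).

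Of 16 tested genes of antigen presentation by MHC class I, 5 rose, all of them steady, and 1 fell, with a median of 0.78. Erap1, which trims peptides in the endoplasmic reticulum, stood at 1.55 and 1.64 CPM in WT and at 51.5 and 38.5 CPM in KO (4.80 ± 0.43, adjusted p = 0.000124, edgeR). Tapbp, the loading chaperone tapasin, stood at 9.90 and 11.3 CPM in WT and at 101 and 83.6 CPM in KO (3.12 ± 0.28, adjusted p = 0.000124, edgeR). The proteasome activator subunits Psme1 and Psme2 rose by 1.48 ± 0.23 and 2.20 ± 0.25 (adjusted p = 0.00209 and 0.000481, edgeR). The immunoproteasome subunit Psmb8 had 1 read in WT and 9.15 and 4.0 CPM in KO (counting interval of the ratio 18.8 to 4279). The presenting molecules themselves were not called: the log2 fold change was 0.18 ± 0.58 for H2-K1, 1.12 ± 0.47 for H2-D1 and −0.71 ± 0.41 for the light chain B2m (adjusted p = 0.859, 0.13 and 0.265, edgeR). The peptide transporter subunit Tap1 and the immunoproteasome subunit Psmb9 were not called either, at 0.17 ± 0.59 and −0.02 ± 0.68 (adjusted p = 0.875 and 0.988, edgeR). Nlrc5, the transactivator of MHC class I genes, fell from 4.48 and 3.28 CPM to 0.610 and 0.462 CPM (−2.80 ± 0.80, adjusted p = 0.0372, edgeR), a call that no fit with 1 library fewer kept.

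The lists of actin cytoskeleton genes and of annexins, S100 proteins, lamins and caveolins gave only higher calls, in edgeR and in DESeq2. Among other cytoskeletal families, edgeR called 3 of 15 tubulins higher (20%) and 0 lower. Of 21 myosins 3 were higher (14.3%) and 1 lower (4.76%), and of 34 kinesins 0 were higher and 1 lower (2.94%). Of 24 actin cytoskeleton genes, 10 rose and 0 fell, with a median of 0.86, but none was steady. Actb and Actg1, the cytoplasmic actins, were at 195 and 357 CPM and at 149 and 269.8 CPM in the 2 WT libraries, which were themselves apart. Both KO libraries were above both WT libraries, at 888 and 859.8 CPM for Actb and 694 and 676 CPM for Actg1. Tagln, the smooth muscle actin-binding protein transgelin, rose from 0.309 and 0.656 CPM to 4.27 and 13.9 CPM (4.12 ± 0.74, adjusted p = 0.00529, edgeR), a call lost without WT replicate 1. The median difference between WT replicates 1 and 2 over this list was −0.49 on the log2 scale, against 0.00735 over all tested genes, and its part in the result was not tested. Of 21 annexin, S100, lamin and caveolin genes, 9 rose and 0 fell, with a median of 1.20. Anxa1 and S100a6 were steady, and S100a6, a small calcium-binding protein, went from 5.41 and 9.30 CPM to 66.6 and 58.2 CPM (3.07 ± 0.36, adjusted p = 0.000512, edgeR). Anxa2 and Anxa3 rose by 2.09 ± 0.41 and 3.05 ± 0.53 (adjusted p = 0.00868 and 0.00443, edgeR), and both lost the call without WT replicate 1. DESeq2 called 12 of the actin list and 10 of the annexin list higher.

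Proteoglycans and the enzymes that build them leaned the other way. Of 26 tested, 2 rose and 7 fell, with a median of −0.65. Besides Acan and Matn3, which were the steady ones, the matrix proteoglycan Vcan was at 66 and 69.8 CPM in WT and at 23.5 and 16.6 CPM in KO (−1.75 ± 0.39, adjusted p = 0.0138, edgeR). The chondroitin synthase Chsy1 fell by 1.04 ± 0.27, whereas Ext1, which polymerises heparan sulfate, rose by 1.42 ± 0.26 (adjusted p = 0.0255 and 0.00589, edgeR). The calls of Vcan and Chsy1 were lost in each fit with 1 of the 4 libraries left out, and that of Ext1 without WT replicate 1 and without KO replicate 1.

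Signalling genes moved in both directions. Of 24 Wnt pathway genes, 4 rose and 4 fell, with a median of 0.12, and none was steady. Axin2, a feedback inhibitor that reports Wnt activity, fell from 3.71 and 6.67 CPM to 0.610 and 0.154 CPM (−3.65 ± 0.63, adjusted p = 0.00434, edgeR), and without KO replicate 2 its adjusted p was 0.0515. Notum, a secreted enzyme that inactivates Wnt ligands, rose from 0.773 and 3.61 CPM to 44.5 and 41 CPM (4.20 ± 1.0, adjusted p = 0.0184, edgeR), a call lost in each fit with 1 of the 4 libraries left out. The transcription factor gene Tcf7l2 rose by 2.53 ± 0.48, while Tcf7 fell by 0.85 ± 0.22 (adjusted p = 0.0067 and 0.0273, edgeR). The call of Tcf7l2 was lost without WT replicate 1 and without KO replicate 1, and that of Tcf7 in each fit with 1 of the 4 libraries left out. Of 10 Hedgehog pathway genes 1 rose and 2 fell, with a median of 0.07. Hhip, which sequesters the ligand, rose steadily from 2.78 and 1.53 CPM to 32.4 and 22.6 CPM (3.69 ± 0.55, adjusted p = 0.00181, edgeR). Smo, the signal transducer, fell from 22 and 23.4 CPM to 3.05 and 6.0 CPM (−2.34 ± 0.42, adjusted p = 0.00547, edgeR), a call lost without KO replicate 1. Of 13 retinoic acid pathway genes (median 0.06), none rose and the binding protein genes Crabp1 and Rbp4 fell, and Crabp1, at 13.3 and 17.6 CPM in WT and 0.976 and 0.770 CPM in KO, was steady.

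Large name families were counted in the same way. Of 387 zinc finger genes named Zfp, Zkscan or Zscan, 7 rose (1.81%) and 40 fell (10.3%), with a median of −0.31. Their sum was 21100 and 18500 CPM in WT and 15800 and 16000 CPM in KO. The steady one was Zfp664, which fell from 234 and 183 CPM to 64 and 75.1 CPM (−1.59 ± 0.24, adjusted p = 0.00192, edgeR). The number of lower members depended on the libraries, with 1 to 19 when 1 library was left out. WT replicate 1 was above WT replicate 2 by a median of 0.20 over the family, and its part in the result was not tested. In 41585 against 41584, 34 members fell and 8 rose (median −0.43), and 21 genes fell in both pairs. Of 55 ubiquitin-specific protease genes (median −0.19) 1 rose and 6 fell, among them the steady X-linked gene Usp51, at 7.42 and 8.42 CPM in WT and 0.122 and 0.770 CPM in KO. Serpins gave 5 higher and 1 lower of 15 (median 1.23), and the steady ones included Serpinb9b and, in the other direction, Serpine2. Glycosyltransferase genes of the galactosyl, GalNAc and sialyl kinds gave 11 higher and 7 lower of 56 (median 0.14).

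In edgeR none of 29 DNA replication genes (median 0.06) was called, and DESeq2 called 2 of them higher. At an unadjusted p under 0.05 in edgeR were 5 of the 29, beside 4410 of all 14629 tested genes. Of 22 mitosis genes (median −0.07) 1 fell (4.55%, near the share of all tested genes), the centromeric histone gene Cenpa (−1.0 ± 0.22, adjusted p = 0.0128, edgeR), and of 22 DNA repair genes (median −0.26) Prkdc and Palb2 fell (9.09%), by 0.86 ± 0.24 and 0.77 ± 0.24 (adjusted p = 0.0328 and 0.0479, edgeR). None of these 3 calls was kept when any 1 of the 4 libraries was left out. None of 17 endoplasmic reticulum chaperones (median −0.16) and none of 18 ATF4 target genes (median −0.18) was called in edgeR, with 3 and 4 at an unadjusted p under 0.05 and 1 and 2 calls in DESeq2. Of 22 lysosome genes (median −0.03) 1 fell (4.55%): Hexa, a subunit of beta-hexosaminidase, went from 93.3 and 76.6 CPM to 10.9 and 11.5 CPM (−2.92 ± 0.56, adjusted p = 0.00783, edgeR), a call kept in 1 of the 4 fits with 1 library left out. A p that misses the threshold does not show that these genes were equal in KO and WT.

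**Figure D4:**
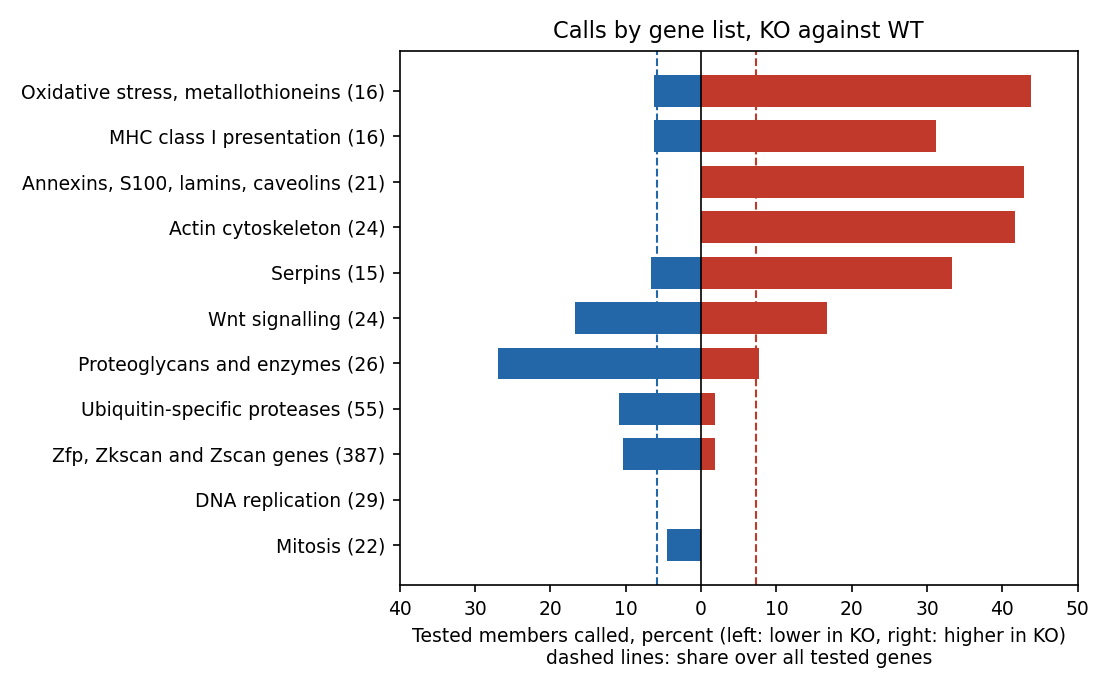
Share of the tested members of 11 gene lists and name families called higher (red, to the right) and lower (blue, to the left) in KO, in percent, with the number tested in parentheses. Dashed lines mark the shares over all tested genes, 7.29% higher and 5.9% lower.

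The same genes were then read in 41585 against 41584, whose fold changes come from 4 other libraries. Both pairs were tested in the same fit over all 12 libraries. Their calls therefore share the estimate of spread for each gene and are not independent, which can raise the overlap of calls. In 41585 against 41584, 1119 genes were called higher (7.65%) and 742 lower (5.07%). All 167 steady genes had the same sign in that pair, 155 of them were called there in the same direction, and 12 were not. Among the 1929 genes called in KO against WT, 1890 had the same sign there, and the share over all tested genes was not computed. Of all genes called in KO against WT, 1068 were also called in 41585 against 41584, which is 55.4% of the former calls and 57.4% of the latter, and 0 of them in opposite directions. In 121 of the 125 steady higher genes both 41585 libraries lay above all 6 libraries of 41584, SOM and 41589, as they did in 19.9% of all tested genes. In 38 of the 42 steady lower genes they lay below all 6, against 16.7% of all tested genes. The median log2 fold change of the steady higher genes was 3.18 in KO against WT and 2.74 in 41585 against 41584, and that of the lower genes −3.09 and −2.21. The genes were chosen on the first of these values, which can make it the larger.

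The difference between the 2 fold changes was tested for each gene. No gene passed by the edgeR quasi-likelihood test (smallest adjusted p = 0.999), and 419 genes (2.86%) had an unadjusted p under 0.05. Of the 167 steady genes, which were chosen on 1 of the 2 fold changes, 40 had such a p. Dicer1 did not pass either, at −2.50 in KO against WT and −0.51 in 41585 against 41584 (unadjusted p = 0.0013, edgeR). The absence of calls therefore does not show that the 2 fold changes were equal. DESeq2 called Fmr1nb and Efhc2 (adjusted p = 0.0168 and 0.0473). Fmr1nb, an X-linked testis antigen gene, was at 28.6 and 23.5 CPM in WT and at 2.68 and 0.616 CPM in KO, and at 10.5 and 21.2 CPM in 41585 and 27.7 and 21 CPM in 41584. Its fold change was −3.92 ± 0.54 in KO against WT and −0.62 in 41585 against 41584, where it was not called (adjusted p = 0.355, edgeR). Of the 12 steady genes not called in 41585 against 41584, Fmr1nb, Trim52, Dicer1, Egr1, Fgg and Tmem181a lie outside the chromosome 1 stretch. The other 6 lie in it.

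**Figure D5:**
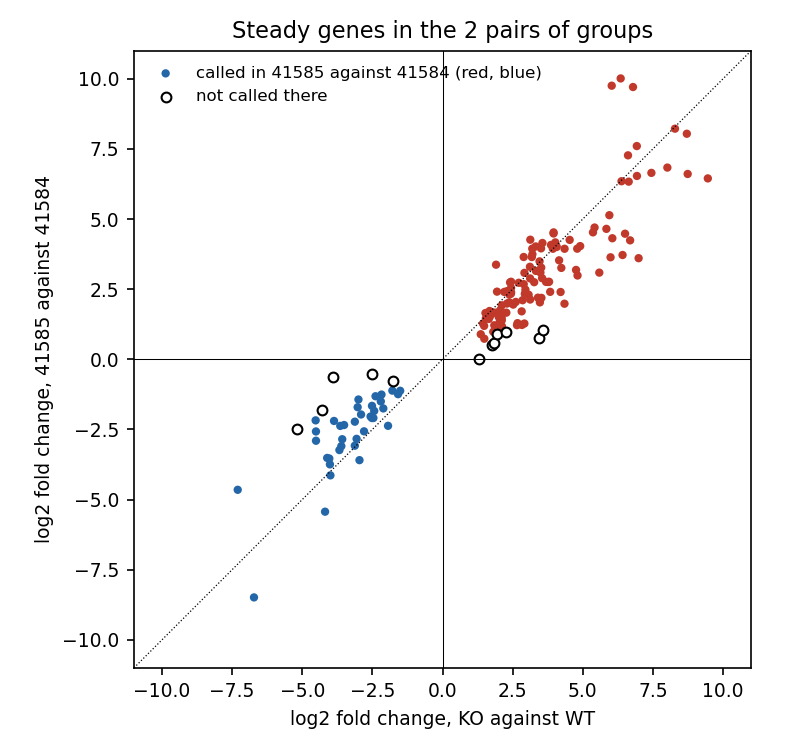
Log2 fold change of the 167 steady genes in KO against WT (horizontal axis) and in 41585 against 41584 (vertical axis), filled where called in both and open for the 12 not called in the second pair. All points lie in the upper right or lower left, where both folds have the same sign, and the dotted line marks equal folds.

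The seeds of the main ES cell miRNAs show which letters to look for in these genes. The mature sequences below are those of RefSeq on GRCm38.p6, with bases 2 to 8, the seed, in capitals. Those of the miR-290 and miR-302 clusters share 1 seed, and miR-17-5p and miR-20a-5p carry it shifted by 1 base.
mmu-miR-291a-3p: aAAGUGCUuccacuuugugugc
mmu-miR-294-3p: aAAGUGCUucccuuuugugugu
mmu-miR-295-3p: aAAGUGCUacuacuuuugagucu
mmu-miR-302b-3p: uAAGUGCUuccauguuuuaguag
mmu-miR-302d-3p: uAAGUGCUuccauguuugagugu
mmu-miR-17-5p: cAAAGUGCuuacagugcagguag
mmu-miR-20a-5p: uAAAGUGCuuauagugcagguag

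The match to the shared seed is AGCACTT, and AGCACTTA adds the adenine that Argonaute favours opposite base 1 of the miRNA. Both were searched on the sense strand of the 3′ UTR of 12875 tested genes. The shorter match was found in 17.6% of them and the longer in 3.56%. Among the 120 steady higher genes with a UTR, 24 (20%) held the shorter and 7 (5.83%) the longer. Of the 38 steady lower genes with a UTR 2 (5.26%) held the shorter and 0 the longer. The median UTR length was 1183 bases over all genes, 1194 in the higher and 1044 in the lower genes. Over all genes called, the shorter match was in 21.8% of those higher and in 18.6% of those lower. Their median UTR lengths were 1203 and 1703 bases, so these 2 shares were not taken at equal length. A match is a description of letters and does not show binding.

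The 7 steady higher genes with the longer match are shown with 8 bases on either side, the match in capitals, from GENCODE M21 transcripts on GRCm38, 5′ to 3′ on the strand of the gene. They are Lats2, a kinase of the Hippo pathway and a known target of these miRNAs in human cells, the interferon-induced Oasl2, the peptidase Erap1, the Rac activator Dock2, the phosphodiesterase Pde3a, the RAS-association protein Rassf9 and Timm17a. All lie in the annotated 3′ UTR of the gene named.
Dock2 (chr11:34227329-34227352, minus strand): taagtgtcAGCACTTAaaagaact
Erap1 (chr13:74691625-74691648, plus strand): ctcataatAGCACTTActgaaaat
Lats2 (chr14:57691078-57691101, minus strand): atggaaagAGCACTTAttttgtgg
Oasl2 (chr5:114911514-114911537, plus strand): tttatctcAGCACTTAgagaattt
Pde3a (chr6:141501201-141501224, plus strand): atagacagAGCACTTAcattcatc
Rassf9 (chr10:102547382-102547405, plus strand): attgttacAGCACTTAacttctct
Timm17a (chr1:135300338-135300361, minus strand): aaaaggacAGCACTTAattggggc

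Lats2 was at 1.24 and 1.53 CPM in WT and at 29.9 and 22.3 CPM in KO (4.21 ± 0.63, adjusted p = 0.00189, edgeR). Dock2, which acts in blood cells, was at 3.25 and 1.86 CPM in WT and at 50.5 and 27.9 CPM in KO (3.96 ± 0.44, adjusted p = 0.00041, edgeR). Pde3a was at 1.55 and 1.20 CPM in WT and at 33.7 and 22.5 CPM in KO (4.35 ± 0.56, adjusted p = 0.000872, edgeR). Rassf9 had 1 read in WT and 151 in KO (counting interval of the ratio 28.4 to 6376). All but Timm17a, whose rise is the one on chromosome 1 described above, were called higher in 41585 against 41584 as well.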

How the data were processed

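Per the labels' protocols, poly(A) RNA was made into reverse-stranded TruSeq libraries. The authors deposited 1 table of read counts per gene, 47643 genes by 12 libraries, and STAR 2.4.2a and the mouse build GRCm38 are named in the submitters' processing notes. The counting program and annotation release were not stated in the labels or headers. The counts were analysed as deposited, and CPM were computed here from them with TMM-scaled library sizes. edgeR 4.0.16 (R 4.3.3, limma 3.58.1) fitted 1 mean per group over all 12 libraries with the robust quasi-likelihood test, after filterByExpr, with Benjamini-Hochberg adjustment over 14629 genes and 6 residual degrees of freedom. The fit was tested on simulated data. DESeq2 1.42.0 was an alternative, as were other filters, scalings and libraries left out. Gene classes and positions came from GENCODE M21 on GRCm38, miRNAs from RefSeq. Counting intervals are 95% exact and, like the floor of 3 counts, cover counting error only.

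The members and lists were chosen with earlier results of these data known. Named genes are the 15 steady protein-coding genes with the largest fold each way at a mean of at least 5 CPM, the 5 each way with the largest difference per kb of exon, the 3 each way of other classes at a mean of at least 1 CPM, up to 4 members of each list, and Dicer1. Others are named as chosen after their values were seen. Some genes that the rule names are not reported here.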

Additional observations from a re-analysis of the deposited data

Results flagged for a closer look

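In Rnf2, the ubiquitin ligase of Polycomb complex 1, both KO libraries were above the WT mean while both 41585 libraries were below the 41584 mean. It stood at 145 and 107 CPM in WT, 266 and 297 CPM in KO, 196 and 213 CPM in 41585 and 181 and 312 CPM in 41584. It rose by 1.16 ± 0.28 in KO against WT and had −0.27 in 41585 against 41584 (unadjusted p = 0.00323 for the difference, edgeR quasi-likelihood test). The difference did not pass the adjustment over all tested genes, and the gene lies in the stretch of chromosome 1 where the WT libraries were low.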

How the results depend on the processing

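The count of genes called in KO against WT, 1929 (1066 higher, 863 lower), was 2950 (1638 and 1312) with no filter on low counts and 4892 (2529 and 2363) when only the KO and WT libraries were fitted. With 1 library left out it was 237 to 606 (148 to 435 higher, 54 to 279 lower), the lowest without KO replicate 1; without WT replicate 1 it was 244, without KO replicate 2 it was 548 and without WT replicate 2 it was 606. In 41585 against 41584 the count of 1861 was 3073 (1825 and 1248) with no filter and 348 to 1820 (282 to 968 higher, 66 to 852 lower) with 1 library left out, and DESeq2 called 1222 lower. For the difference between the pairs, 0 genes by edgeR became 2 by DESeq2 (2 lower), 69 with no filter (45 higher, 24 lower) and 0 to 4 with 1 library left out (0 to 1 higher, 0 to 4 lower). Leaving out the chromosome 1 stretch, chosen after seeing the data, gave 1850. With the replicate block the count was 2346 in KO against WT and 2170 in 41585 against 41584. The labels do not say that a replicate number marks a shared day or culture. Deviations of same-numbered libraries correlated at −0.00989 for KO with WT and at 0.325 for 41585 with 41584. Over all pairs of groups these correlations ran from −0.0832 to 0.508, the highest for WT with 41589. Over 321 genes named or listed, the alternatives gave 2256 values with the same call, 464 weaker, 148 stronger, 2 moved and 0 reversed. With 2 libraries per group, many small changes could not be detected, and genes not called may have changed. In simulated data for KO against WT, the fit recovered 16% of 50 genes changed 2-fold and 80% of 50 changed 4-fold. At 8-fold and 16-fold it recovered 96% and 100%.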

Other observations

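The 5 genes given here were chosen after their values were seen. T and Gata6, genes of early lineages, fell, and Rhox genes moved in both directions. T, the mesoderm factor brachyury, fell from 2.94 and 0.766 CPM to 0.122 and 0 CPM (counting interval of the WT to KO ratio 4.02 to 1004; adjusted p = 0.0357, edgeR). Gata6, a factor of primitive endoderm, fell from 2.94 and 0.766 CPM to 0 and 0.154 CPM (counting interval of the WT to KO ratio 4.02 to 1004; adjusted p = 0.0327, edgeR). Among the Rhox homeobox genes of the X chromosome, Rhox6 rose from 1.08 and 1.53 CPM to 29 and 22.3 CPM and Rhox9 from 1.39 and 0.766 CPM to 22.7 and 21.6 CPM (adjusted p = 0.0138 and 0.0122, edgeR), whereas Rhox10 fell from 2.17 and 1.20 CPM to 0.122 and 0.308 CPM. None of these 5 genes met the condition for a steady call.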
